A study of Mus musculus with 12 samples.

Results

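Genes of the Rab GTPases and of the exocyst were examined in mIMCD3 cells, an epithelial line from the mouse inner medullary collecting duct that was immortalized with the SV40 early region. A gene was a member where its Ensembl identifier mapped to a protein-coding symbol made of Rab, a number and an optional letter, or to Exoc1 through Exoc8. Genes of proteins that bind or regulate Rabs were left out. The rule found 67 members among the 47642 genes of the table, of which 59 were Rab GTPases and 8 were exocyst subunits. Unedited cells (Wt), 1 Pkd1-/- clone made with CRISPR and 1 Pkd2-/- clone made with TALENs were sequenced, with 4 libraries per genotype. Pkd1 and Pkd2 encode the polycystins, and their loss in tubule cells starts autosomal dominant polycystic kidney disease. Each library came from its own dish, harvested 4 days after full confluency, so that the p-values below measure the spread between dishes of 1 line and not the spread between clones.

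Rab GTPases are small proteins that mark the membranes of the secretory and endocytic pathway. Guanine nucleotide exchange factors (GEFs) load a Rab with GTP, which lets it recruit effectors such as motors and tethers, and GTPase-activating proteins (GAPs) switch it off. The exocyst is a multi-subunit tether that holds post-Golgi and recycling vesicles at the plasma membrane before they fuse, and Exoc6 is an effector of the Rab11 family. In tubule epithelia, Rab8, Rab11 and the exocyst carry cargo to the apical membrane and to the primary cilium, the organelle in which the polycystins act.

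The cells expressed the epithelial program that the label implies, with gaps among the collecting duct markers. Of 15 collecting duct markers, 11 had a mean of at least 10 normalized counts in each genotype, and Epcam averaged 17237 to 22381. Aqp2, the vasopressin-regulated water channel, was at 0 in all 12 libraries. Aqp3, Avpr2 and Scnn1b averaged at most 3.5 normalized counts in any genotype. The 6 fibroblast markers summed to 15 to 99, the 5 endothelial markers to 0 to 10 and the 6 leukocyte markers to 47 to 73 normalized counts per library, the last mostly Cd68, against 76664 to 89443 for the collecting duct markers. Pkd1 lay at 30 to 49 in the Pkd1-/- libraries and at 682 to 883 in Wt. Pkd2 mRNA overlapped between the Pkd2-/- libraries (3855 to 4135) and Wt (3438 to 4467), so that its level does not check that label. The libraries held an estimated 23200000 to 30300000 reads on genes.

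Values are read counts divided by the size factor of the library and rounded, called normalized counts here. Of the members, 59 had a mean of at least 1 normalized count and were tested, 51 Rabs and all 8 exocyst subunits. The other 8, Rab3c, Rab7b, Rab9b, Rab33a, Rab38, Rab39b, Rab42 and Rab44, reached at most 4 normalized counts in any library, and Rab38 was at 0 in all 12. A count of 0 allows up to 3 counts in a library. Because these are bulk samples, fewer cells with a transcript and less of it per cell cannot be told apart.

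Wt cells expressed a few housekeeping Rabs at high level and the exocyst at a lower one. Levels between genes are compared per kb of annotated exon. Rab5c of the early endosome stood at 3443 ± 122 normalized counts per kb (SD, n = 4), Rab1b of the ER-to-Golgi route at 3435 ± 179 and Rab7 of the late endosome at 3162 ± 86.7. The first of these neighbors in the order did not differ beyond their spread. Rab2a (2598 ± 46), Rab10 (2433 ± 98.5) and Rab25 (2202 ± 117) followed. Together Rab1b, Rab5c, Rab7, Rab10 and Rab2a made up 40.1 to 43.3% of the summed Rab level per kb in every library. With the length of the longest transcript instead, Rab2a and Rab10 ranked lower in Wt, at 6 and 7.

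Among the exocyst subunits, Exoc6 had the highest level in Wt (619 ± 26.3 normalized counts per kb of exon), followed by Exoc7 (545 ± 18.6), and Exoc5 the lowest (72.7 ± 6.26). The top of this order depends on the length used. Per kb of the longest transcript, Exoc7 (690) came before Exoc6 (619) and Exoc4 (568), and Exoc5 stayed lowest (103). The summed exocyst level per kb ranged from 2233 to 2311 in Wt, from 2193 to 2341 in Pkd1-/- and from 2365 to 2503 in Pkd2-/-. The summed Rab level was 37267 ± 501, 36239 ± 1270 and 34757 ± 549 in these groups.

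**Figure D1:**
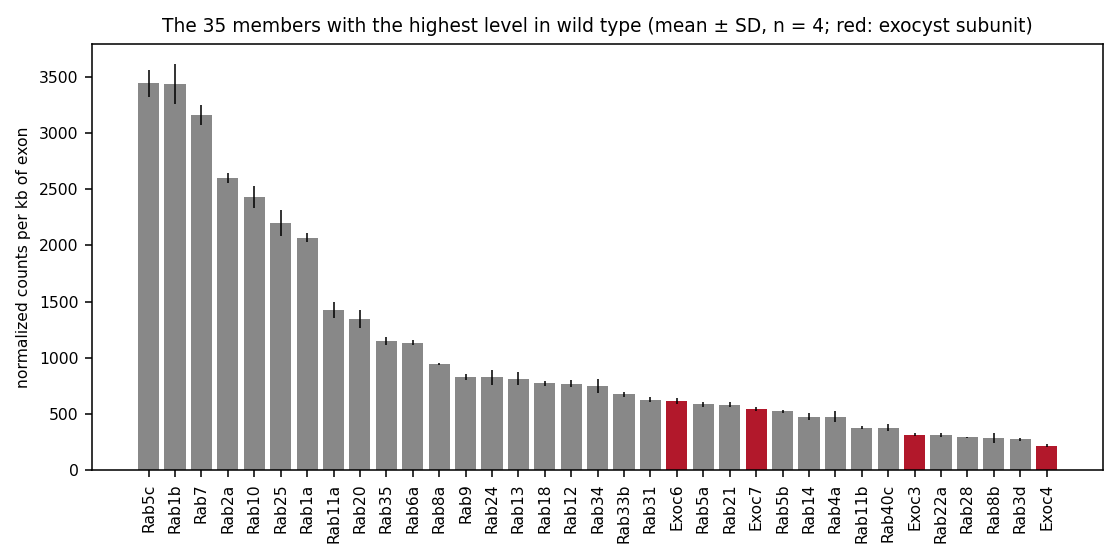
Level of the 35 members highest in Wt, in normalized counts per kb of exon (vertical axis), as bars with the mean and SD of 4 libraries. Exocyst subunits, in red, reach at most 619, while Rab5c stands at 3443 and Rab1b at 3435.

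More members changed in the Pkd2-/- clone than in the Pkd1-/- clone, and so did more of all genes. Against Wt, 17 of the 59 tested members changed in Pkd1-/- at an adjusted p below 0.05 (limma), beside 27.1% of the 18552 genes tested. Of these, 4 were higher and 13 lower, beside 13.6 and 13.5% of all genes. In Pkd2-/-, 37 changed, beside 42.3% of all genes, with 9 higher and 28 lower, beside 20.0 and 22.3%. Between the mutants 33 differed, 15 higher and 18 lower in Pkd2-/-, beside 46.3% of all genes (21.9% higher and 24.3% lower). The called shares of the members were 28.8%, 62.7% and 55.9% in these comparisons. Among genes with a mean of at least 100 the called shares were 37%, 59.3% and 63.2%. Those were higher than the shares of the members in Pkd1-/- and between the mutants, and lower in Pkd2-/-. Of the 59 members, 12 had a mean under 100. Members whose 4 mutant libraries lay all above or all below those of Wt numbered 5 and 15 in Pkd1-/-, beside 27.1% of all genes, and 9 and 27 in Pkd2-/-, beside 37.2%. Between the mutants they numbered 16 and 18, beside 41.8%. Both mutants were compared with the same 4 Wt libraries, so that these counts are not independent of each other.

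Between 2 and 8 members per comparison passed a 2-fold threshold (adjusted p below 0.05, with a difference of at least 1 on the log2 scale). There were 2 in Pkd1-/-, beside 6.24% of all genes, namely Rab15, which was higher (2.96% of all genes were), and Rab17, which was lower (3.28%). Pkd2-/- had 5, beside 9.62% of all genes, and all 5 were lower (6.38% of all genes were lower and 3.24% higher). Between the mutants there were 8, beside 11.8%, with 7 lower in Pkd2-/- (7.23% of all genes) and 1 higher (4.53%). These were 3.39, 8.47 and 13.6% of the tested members in the 3 comparisons. Among genes with a mean of at least 100 the shares were lower, at 2.84, 5.68 and 6.97%, but 12 of the 59 members had a mean under 100. Apart from Rab25, all 2-fold changed members had a mean under 1000 normalized counts. Of the 39 members with a mean of at least 1000, none was 2-fold changed against Wt in either mutant, and the closest to that size was Rab25 in Pkd2-/-. Over the members, the log2 fold changes had a median of -0.02 in Pkd1-/- and of -0.15 in Pkd2-/-, where all 18552 genes tested had medians of 0.01 and -0.01.

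**Figure D2:**
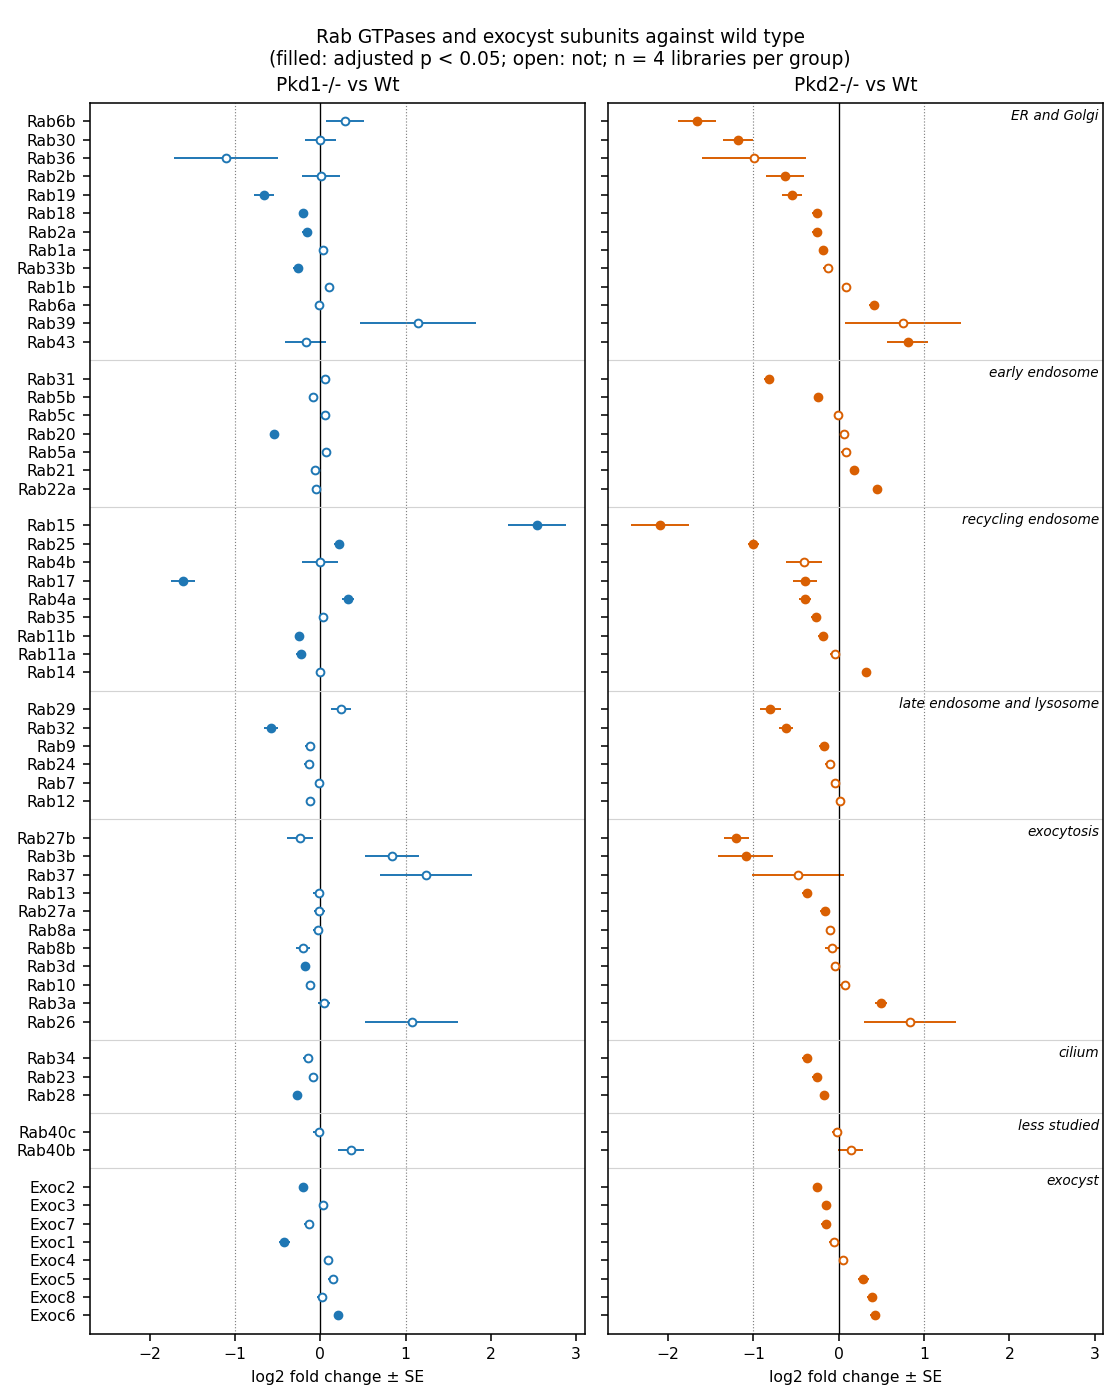
Log2 fold change with its standard error (horizontal axis) of each tested member against Wt, for Pkd1-/- (left) and Pkd2-/- (right), grouped by role; filled points had an adjusted p below 0.05 and dotted lines mark 2-fold. Rab15 stands at 2.54 in Pkd1-/- and at -2.10 in Pkd2-/-, and most exocyst subunits lie close to 0.

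The Rabs of recycling endosomes held the largest changes in Pkd1-/-, those of Rab15 and Rab17. In Pkd2-/- only Rab15, at a low level, exceeded Rab6b of the Golgi (-1.66). The median size of the log2 fold change there was 0.39, below 0.55 for the Rabs of the ER and the Golgi. Of the 9 recycling Rabs tested, 6 changed in Pkd1-/-, 3 in each direction (66.7%, beside 27.1% of all genes and 37% of those with a mean of at least 100). In Pkd2-/- 7 changed, of which only Rab14 was higher (77.8%, beside 42.3 and 59.3%). Their share of the summed Rab level per kb was 16.6 ± 0.266% in Wt, 17.6 ± 0.332% in Pkd1-/- and 13.8 ± 0.224% in Pkd2-/- (SD, n = 4). Without Rab25 the share of the other 8 was 10.7 ± 0.211%, 10.6 ± 0.289% and 10.6 ± 0.211%.

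Rab25, an epithelial relative of Rab11 that works at the apical recycling endosome, was the most abundant of the 2-fold changed members, reaching that size between the mutants. It stood at 3524, 3924, 3765 and 3525 normalized counts in Wt, at 4470, 4068, 4444 and 4185 in Pkd1-/- and at 1942, 1839, 1928 and 1675 in Pkd2-/-. The 3 genotypes did not overlap, with Pkd1-/- above and Pkd2-/- below Wt. The log2 fold change was 0.22 ± 0.06 (SE, limma adjusted p = 0.00545) in Pkd1-/-. In Pkd2-/- it fell by 49.9%, with an SE of 0.06 on the log2 scale (adjusted p = 4.08e-11), just short of the 2-fold threshold. Between the mutants it was -1.22 ± 0.06 (adjusted p = 1.68e-12).

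Rab17, an epithelial Rab of transcytosis and apical recycling, fell in both mutants, and most in Pkd1-/-. Its Wt libraries held 121, 125, 139 and 124 normalized counts, those of Pkd1-/- 48, 40, 38 and 39, and those of Pkd2-/- 97, 84, 109 and 98. No library of a mutant reached the lowest Wt library. The difference from Wt on the log2 scale was -1.61 ± 0.14 in Pkd1-/- (limma adjusted p = 3.53e-08) and -0.39 ± 0.14 in Pkd2-/- (adjusted p = 0.0262), and the mutants themselves differed by 1.21 (adjusted p = 5.17e-07). The smaller difference, in Pkd2-/-, lost the call without Wt replicate 3 (adjusted p = 0.0802) or without Pkd2-/- replicate 2 (adjusted p = 0.0876).

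The promoters of these epithelial Rabs are shown because both genes moved by a large amount in a mutant. They are the 250 bases before the RefSeq start on build GRCm38.p6, written 5′ to 3′ on the strand of the gene with CpG dinucleotides in capitals. Rab25 lies at chr3:88548280-88548529 and Rab17 at chr1:90967668-90967917, both on the minus strand.
Rab25: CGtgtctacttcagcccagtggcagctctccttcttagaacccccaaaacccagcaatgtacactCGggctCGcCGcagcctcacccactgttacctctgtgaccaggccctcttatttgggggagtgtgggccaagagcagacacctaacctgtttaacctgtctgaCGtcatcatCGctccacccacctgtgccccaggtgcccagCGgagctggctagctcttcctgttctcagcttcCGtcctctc
Rab17: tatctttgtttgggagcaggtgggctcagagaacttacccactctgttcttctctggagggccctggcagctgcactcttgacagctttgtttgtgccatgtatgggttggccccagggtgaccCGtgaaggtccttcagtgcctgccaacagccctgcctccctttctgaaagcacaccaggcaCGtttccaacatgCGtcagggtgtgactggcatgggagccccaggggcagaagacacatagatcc
They hold few CpG for promoters of members, with 8 in Rab25 and 3 in Rab17. The median over the 72 promoters of the 56 members that had an entry was 15, and that over all 32851 promoters of this length was 6, between these genes. The letters AACCNGTT, a motif of grainyhead-like factors searched on both strands, occur in Rab25 as aacctgtt, with the first base at -102 from the start. They occur in no other promoter of a member, while 1.79% of all promoters hold them. CACCTG, an E-box, was searched on both strands and occurs in Rab25 at -64 and, on the opposite strand, at -53, and in Rab17 on the opposite strand at -234. Of the member promoters 16.7% hold it, beside 17.2% of all promoters, and in these sequences it does not overlap the AACCNGTT match. TATAAA occurs in neither.

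Rab15, which acts in endocytic recycling and is best known from neurons, moved in opposite directions in the mutants at a low level. It stood at 7, 5, 6 and 7 normalized counts in Wt, at 50, 32, 43 and 41 in Pkd1-/- and at 0, 1, 1 and 1 in Pkd2-/-. The groups were fully separate, but the Pkd2-/- libraries lay below the limit that a count of 0 allows. On the log2 scale it differed from Wt by 2.54 ± 0.34 in Pkd1-/- (limma adjusted p = 1.07e-05) and -2.10 ± 0.34 in Pkd2-/- (adjusted p = 4.81e-05). Summed over libraries, Wt had 25 against 3 in Pkd2-/-, a ratio of 8.33 with an exact interval of 2.54 to 43.1 that covers counting error only.

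Rab4a, of the fast recycling route, also went apart. It rose in Pkd1-/- by 0.32 ± 0.07 on the log2 scale (958 to 1081 normalized counts against 744 to 927 in Wt, limma adjusted p = 0.00302) and fell by 0.39 on that scale in Pkd2-/- (589 to 688, adjusted p = 0.000302). Rab11a, the widely expressed member of the Rab11 family, fell in Pkd1-/- (-0.23 ± 0.06, adjusted p = 0.00538) and stood at -0.04 ± 0.06 in Pkd2-/-, where it did not pass the test. Rab11b was lower in both mutants, by -0.25 ± 0.05 and -0.19 ± 0.05. Rab14, which links the Golgi and endosomes, rose in Pkd2-/-, from 6093 to 7031 normalized counts in Wt to 7540 to 8281 (log2 fold change 0.32 ± 0.05, adjusted p = 5.94e-05).

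**Figure D3:**
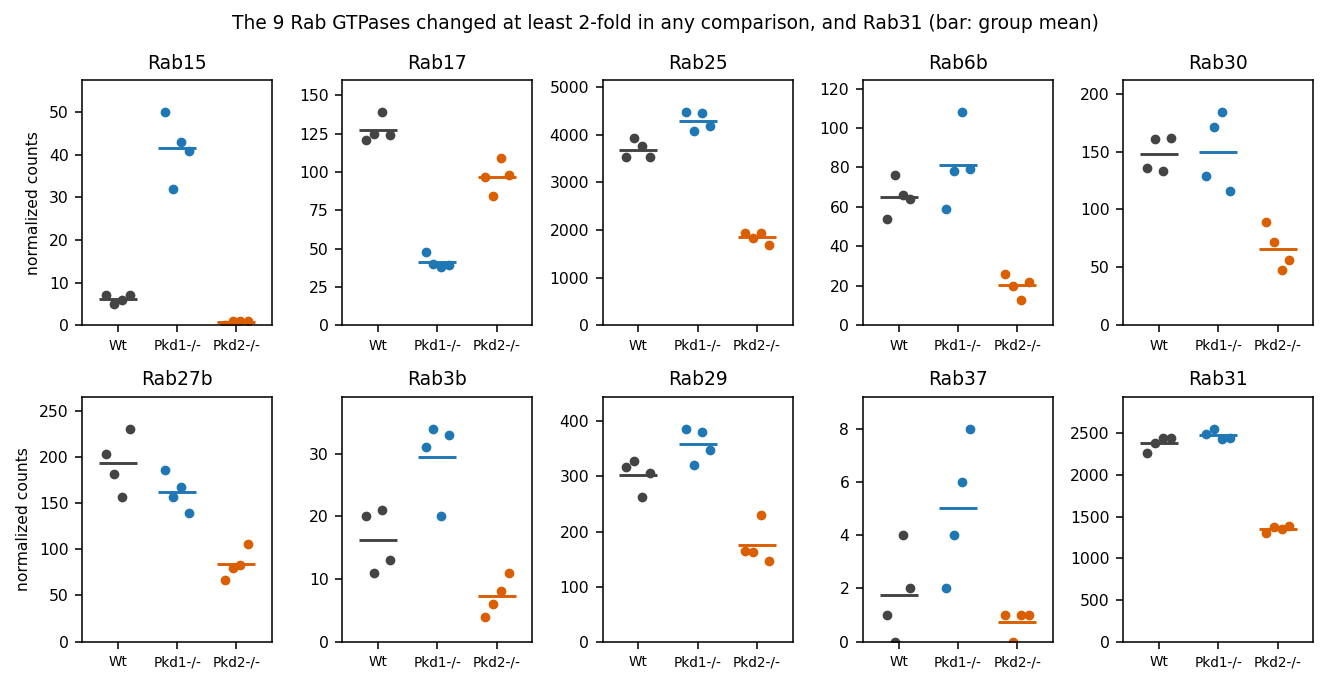
Normalized counts (vertical axis) per library of the 9 Rabs changed at least 2-fold in any of the 3 comparisons and of Rab31, by genotype, with bars at the group means. Rab15 and Rab17 separate Pkd1-/- from both other groups, while Rab25, Rab6b, Rab30 and Rab31 separate Pkd2-/-.

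Of the 13 tested Rabs of the ER and the Golgi, 4 were lower in Pkd1-/- and none higher. These were 30.8%, beside 27.1% of all genes and 37% of those with a mean of at least 100. In Pkd2-/- 7 were lower and 2 higher (69.2%, beside 42.3% of all genes and 59.3% of those with a mean of at least 100). The median of their log2 fold changes was -0.01 for Pkd1-/- and -0.26 for Pkd2-/-.

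The Golgi paralogs Rab6a and Rab6b moved in opposite directions in Pkd2-/-. Rab6a, the ubiquitous form, stood at 4268, 4108, 4230 and 4292 normalized counts in Wt, at 4342, 4147, 4326 and 3984 in Pkd1-/- and at 5237, 5915, 5549 and 5812 in Pkd2-/-. Rab6b, the form best known from brain, stood at 54, 76, 66 and 64 in Wt, at 59, 78, 108 and 79 in Pkd1-/- and at 26, 20, 13 and 22 in Pkd2-/-. For both genes the Pkd2-/- libraries stood apart, and those of Pkd1-/- overlapped Wt. In Pkd2-/- the log2 fold change was 0.41 ± 0.05 for Rab6a (limma adjusted p = 7.88e-07) and -1.66 ± 0.22 for Rab6b (adjusted p = 6.04e-06). Mrpl48 overlaps 19% of the exon bases of Rab6a on the opposite strand, and the sources used here do not state whether counting used strand.

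Their promoters, shown because the pair diverged, lie on the plus strand at chr7:100607336-100607585 (Rab6a) and chr9:103111824-103112073 (Rab6b) of the same build, with CpG again in capitals.
Rab6a: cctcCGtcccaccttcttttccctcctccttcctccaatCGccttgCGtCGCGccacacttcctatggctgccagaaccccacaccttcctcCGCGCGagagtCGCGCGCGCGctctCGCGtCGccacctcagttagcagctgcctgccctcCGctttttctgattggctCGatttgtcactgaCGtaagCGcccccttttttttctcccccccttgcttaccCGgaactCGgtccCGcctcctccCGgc
Rab6b: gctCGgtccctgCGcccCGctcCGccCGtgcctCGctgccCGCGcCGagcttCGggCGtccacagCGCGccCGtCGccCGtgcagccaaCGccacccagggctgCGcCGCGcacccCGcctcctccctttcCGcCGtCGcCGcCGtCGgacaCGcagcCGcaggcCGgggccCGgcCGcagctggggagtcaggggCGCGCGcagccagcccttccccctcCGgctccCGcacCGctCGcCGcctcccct
Both hold more CpG than Rab25 and Rab17, with 24 in Rab6a and 40 in Rab6b, and have a GC content of 62.8 and 80.8%. None of the 3 motifs occurs in either. The CpG counts of member promoters run from 0 to 42. Those of the 2-fold changed members with an entry, 6 genes with 9 promoters, run from 3 to 40, the highest being Rab6b. Their median was 6, beside 15 in the promoters of the other members, and several of the 9 belong to Rab15.

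Rab30, a Golgi Rab, fell in Pkd2-/- only among the comparisons with Wt. It stood at 136, 161, 133 and 162 normalized counts in Wt, at 129, 171, 184 and 116 in Pkd1-/- and at 89, 72, 48 and 56 in Pkd2-/-. The Pkd2-/- libraries lay below all others (log2 fold change -1.18 ± 0.18, limma adjusted p = 3.28e-05), and the mutants differed by the same size (-1.18, adjusted p = 2.69e-05). Rab19 fell in both mutants, by -0.66 ± 0.12 (119 to 160 normalized counts against 196 to 248 in Wt) and -0.55 ± 0.12 (121 to 166). Rab2a, which works between the ER and the Golgi, fell by 0.16 and 0.26 on the log2 scale. Rab33b, a Golgi Rab that also binds the autophagy machinery, was lower in Pkd1-/- (-0.26 ± 0.06). Gm38160 overlaps 18.7% of the exon bases of Rab33b on the opposite strand.

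The values of some further genes cannot be assigned with certainty. Rab43 rose in Pkd2-/- (41 to 60 normalized counts against 23 to 39 in Wt, log2 fold change 0.81 ± 0.24, limma adjusted p = 0.00959), but it shares 75.4% of its exon bases with Gm45140 on the same strand. Rab2b was lower there (-0.63 ± 0.22, adjusted p = 0.0242), with 64% of its exon bases overlapped on the opposite strand by Tox4 and Gm43766. That call was lost without Wt replicate 3 (log2 fold change -0.44, adjusted p = 0.111), the highest library at 104. Rab24, with 62.4% overlapped by Prelid1, did not pass the test in either mutant. Nor did Rab4b, which shares 65% of its exon bases with Gm21983 and Mir3101 on the same strand.

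Of 7 early endosome Rabs, 1 was lower in Pkd1-/- (14.3%, beside 27.1% of all genes and 37% of those with a mean of at least 100). In Pkd2-/- 2 were higher and 2 lower (57.1%, beside 42.3 and 59.3%), and a pair of relatives diverged there. Rab31, which carries cargo between the trans-Golgi and endosomes, stood at 2266, 2390, 2442 and 2451 normalized counts in Wt, at 2491, 2558, 2428 and 2442 in Pkd1-/- and at 1300, 1375, 1347 and 1386 in Pkd2-/-. Its close relative Rab22a stood at 2300, 2109, 2290 and 2392, at 2168, 2211, 2179 and 2230, and at 3068, 3166, 2907 and 3299 in the same order. The Pkd1-/- libraries of both overlapped Wt, and those of Pkd2-/- lay apart on opposite sides. The log2 fold changes in Pkd2-/- were -0.82 ± 0.05 for Rab31 (limma adjusted p = 3.75e-11) and 0.45 ± 0.05 for Rab22a (adjusted p = 5.75e-07).

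Rab20, an endosomal Rab of epithelia, fell in Pkd1-/- from 1764 to 1979 normalized counts in Wt to 1250 to 1323 (-0.54 ± 0.05, limma adjusted p = 3.02e-07). In Pkd2-/- it stood at 1841 to 2091, overlapping Wt, and the mutants differed by 0.60 (adjusted p = 2.67e-08). E230013L22Rik overlaps 25.6% of its exon bases on the opposite strand. Of the Rab5 paralogs, which drive early endosome fusion, only Rab5b passed the test against Wt, in Pkd2-/- (-0.24 ± 0.04, adjusted p = 0.000231). Rab5c, at 7137 to 7864 normalized counts there against 7253 to 7891 in Wt, did not pass it.

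Of the 6 tested Rabs of late endosomes and lysosomes, 1 was lower in Pkd1-/- and 3 were lower in Pkd2-/-, and none was higher. These were 16.7 and 50%, beside 27.1 and 42.3% of all genes and 37 and 59.3% of those with a mean of at least 100. Rab7, which directs late endosomes to lysosomes, passed no test (-0.02 ± 0.04 and -0.04 ± 0.04). Rab32, of lysosome-related organelles and mitochondria, fell in both mutants. Its Wt libraries held 502, 523, 454 and 466 normalized counts, those of Pkd1-/- 342, 332, 321 and 305, and those of Pkd2-/- 319, 338, 299 and 306. The log2 fold changes were -0.58 ± 0.08 (limma adjusted p = 8.67e-06) and -0.62 ± 0.08 (adjusted p = 1.76e-06), while the mutants differed by -0.04, which did not pass.

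Rab29, a trans-Golgi and lysosome Rab that recruits the kinase Lrrk2, stood at 317, 328, 262 and 306 normalized counts in Wt, at 387, 321, 380 and 349 in Pkd1-/- and at 165, 163, 230 and 147 in Pkd2-/-. The Pkd2-/- libraries lay below all Wt libraries (log2 fold change -0.80 ± 0.12, limma adjusted p = 2.68e-05). Against Pkd1-/- they were lower by -1.04 (adjusted p = 8.33e-07), which became -0.96 without Pkd2-/- replicate 4.

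Among the Rabs of exocytosis and regulated secretion, 1 of 11 changed in Pkd1-/- and 5 in Pkd2-/-. These were 9.09 and 45.5%, beside 27.1 and 42.3% of all genes and 37 and 59.3% of those with a mean of at least 100. Rab27b, which docks secretory granules and multivesicular bodies, stood at 204, 182, 157 and 231 normalized counts in Wt, at 186, 157, 168 and 140 in Pkd1-/- and at 67, 80, 83 and 106 in Pkd2-/-. The Pkd2-/- libraries lay apart from all others, with a log2 fold change of -1.20 ± 0.15 (limma adjusted p = 2.39e-06). Rab27a, its more abundant paralog, was lower by -0.16 ± 0.06 (adjusted p = 0.0447).

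Rab3 paralogs, which act in regulated exocytosis, diverged in Pkd2-/-. Rab3a rose from 404 to 434 normalized counts in Wt to 576 to 620 (0.50 ± 0.07, limma adjusted p = 1.3e-05). Rab3b stood at 20, 11, 21 and 13 in Wt, at 31, 34, 20 and 33 in Pkd1-/- and at 4, 6, 8 and 11 in Pkd2-/-. Its Pkd2-/- and Wt libraries met at 11, and the log2 fold change was -1.09 ± 0.32 (adjusted p = 0.00978, two-sided exact permutation p = 0.0571). Without Wt replicate 1, Wt replicate 3 or Pkd2-/- replicate 1 it fell short of 2-fold, at -0.87 at the least. In Pkd1-/- the value was 0.84 ± 0.32 and missed the threshold (adjusted p = 0.0603), which it passed in 6 of 20 other settings (adjusted p = 0.0299 to 0.0484). Rab3d was lower in Pkd1-/- (-0.18 ± 0.05, adjusted p = 0.0161).

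Rab37, a granule Rab, was near the detection limit. It stood at 1, 0, 4 and 2 normalized counts in Wt, at 2, 4, 6 and 8 in Pkd1-/- and at 1, 0, 1 and 1 in Pkd2-/-. The mutants differed (limma adjusted p = 0.0135), with 20 against 3 summed counts and a ratio of 6.67 with an exact interval of 1.98 to 35. Neither mutant passed the test against Wt.

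Apart from Rab17 and Rab25, described above, Rabs of the apical and ciliary route moved by small amounts. Rab8a, which acts at the ciliary base and in apical delivery, did not pass against Wt (-0.03 ± 0.05 in Pkd1-/- and -0.10 ± 0.05 in Pkd2-/-, limma adjusted p = 0.671 and 0.0754), and passed in Pkd2-/- after rescaling to the same upper quartile (adjusted p = 0.0326). Rab10, of polarized exocytosis, did not pass against Wt (-0.12 ± 0.05 and 0.07 ± 0.05), and the mutants differed by 0.19 (adjusted p = 0.00301). The cilium Rabs Rab34, Rab23 and Rab28 were lower in Pkd2-/-, all 3 without overlap with Wt. Rab34, which is needed early in ciliogenesis, stood at 1783, 1899, 1873 and 1592 normalized counts in Wt and at 1458, 1342, 1424 and 1292 in Pkd2-/- (-0.37 ± 0.06, adjusted p = 5.67e-05). Rab23, a regulator of Hedgehog signaling, was lower by -0.26 ± 0.05 and Rab28 by -0.17 ± 0.05, and the Rab28 call was lost without Pkd2-/- replicate 1 (adjusted p = 0.0718). In Pkd1-/- only Rab28 passed the test (-0.27 ± 0.05, adjusted p = 0.000757).

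Exocyst subunits changed by at most 1.34-fold. Of the 8, Exoc6 was higher and Exoc1 and Exoc2 were lower in Pkd1-/-. In Pkd2-/- Exoc5, Exoc6 and Exoc8 were higher and Exoc2, Exoc3 and Exoc7 lower. These were 37.5 and 75% of the subunits, beside 27.1 and 42.3% of all genes and 37 and 59.3% of those with a mean of at least 100. Exoc4 passed no test. The median log2 fold change over the subunits was 0.03 and 0.00, beside 0.01 and -0.01 for all genes.

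Exoc6, the subunit that binds Rab11, rose in both mutants. It stood at 2163, 2083, 2223 and 2303 normalized counts in Wt, at 2312, 2617, 2613 and 2646 in Pkd1-/- and at 3009, 2739, 3026 and 2992 in Pkd2-/-. The groups did not overlap, although the lowest Pkd1-/- library lay next to the highest Wt library. The log2 fold change was 0.21 ± 0.05 (limma adjusted p = 0.00527) and 0.42 ± 0.05 (adjusted p = 3.32e-06), and the mutants differed by 0.21 (adjusted p = 0.00346).

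Exoc8, a subunit that binds Ral GTPases, stood at 946, 903, 855 and 911 normalized counts in Wt, at 882, 1019, 877 and 900 in Pkd1-/- and at 1123, 1229, 1199 and 1181 in Pkd2-/-. It rose in Pkd2-/- alone of the mutants (0.39 ± 0.06, limma adjusted p = 2.95e-05) and was at 0.02 ± 0.06 in Pkd1-/-, and the mutants differed by 0.37 (adjusted p = 4.73e-05). Exoc5, whose loss in tubule cells is known to impair ciliogenesis, rose in Pkd2-/- from 1200 to 1440 normalized counts in Wt to 1539 to 1640 (0.29 ± 0.06, adjusted p = 0.000428). Its value in Pkd1-/-, 0.15 ± 0.06, missed the threshold (adjusted p = 0.0539), which it passed in 4 of 20 other settings (adjusted p = 0.0117 to 0.0479).

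Exoc1, which binds the plasma membrane, fell in Pkd1-/-. Its libraries held 1385, 1198, 1269 and 1277 normalized counts in Wt, 913, 991, 1017 and 916 in Pkd1-/- and 1220, 1263, 1141 and 1329 in Pkd2-/-. The Pkd1-/- libraries lay below all others, at -0.42 ± 0.06 (limma adjusted p = 3.89e-05), and those of Pkd2-/- overlapped Wt. Exoc2, another Ral effector, fell by 0.20 and 0.25 on the log2 scale, with 1314 to 1399 normalized counts in Wt, 1158 to 1275 in Pkd1-/- and 1110 to 1191 in Pkd2-/-. Exoc3 was lower in Pkd2-/- (-0.15 ± 0.05, adjusted p = 0.0173), a call lost without Pkd2-/- replicate 4 (adjusted p = 0.0575). Exoc7 had overlapping groups there (1971 to 2357 against 2289 to 2460), and its adjusted p of 0.0349 rose above the threshold in 7 of 20 other settings, to 0.134 at the most.

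**Figure D4:**
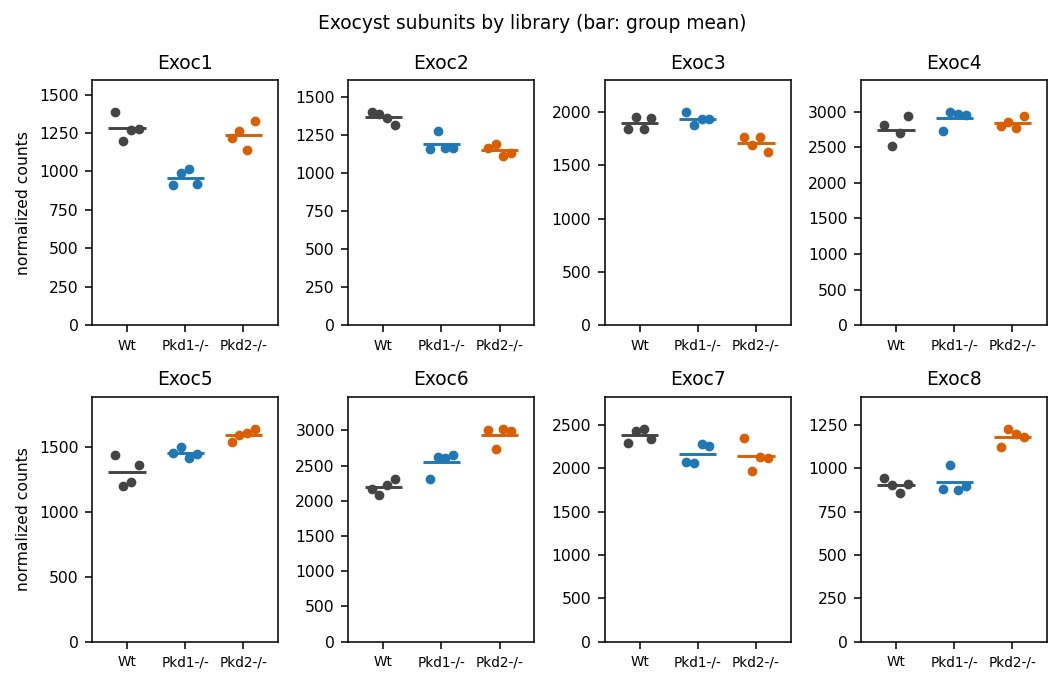
Normalized counts (vertical axis, from 0) of the exocyst subunits per library, by genotype, with bars at the group means. Exoc6 and Exoc8 lie highest in Pkd2-/-, Exoc1 is lowest in Pkd1-/- and Exoc4 overlaps throughout.

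Because paralogs can share a function, the share of each in the per-kb sum of its family was computed per library. Within the Rab11 family, Rab25 made up 55 ± 1.8% in Wt, 62.5 ± 0.972% in Pkd1-/- and 39.1 ± 1.43% in Pkd2-/- (SD, n = 4), and Rab11a took the largest share in Pkd2-/-, at 49.2 ± 1.44%. Of the pair Rab22a and Rab31, Rab31 made up 66.5 ± 1.33% in Wt, 68.1 ± 0.563% in Pkd1-/- and 45.1 ± 1.1% in Pkd2-/-. Per kb of exon the more abundant paralog thus changed place in both families in Pkd2-/-. For the Rab11 family this depends on the length used. With the longest transcript, Rab11a and Rab25 were close in Pkd2-/-, at 1774 and 1708 normalized counts per kb. Rab22a and Rab31 stood at 435 and 389 by that length. Rab27b and Rab6b were the minor form in all groups, and Rab27b went from 9.21 ± 1.37% in Wt to 4.67 ± 0.741% and Rab6b from 1.13 ± 0.175% to 0.267 ± 0.0799%. Rab3a rose from 40.7 ± 1.26% to 50.2 ± 1.62%, level with Rab3d at 49.5 ± 1.74%. Per kb of the longest transcript instead, Rab3a stood above Rab3d in Pkd2-/-, at 384 against 286 normalized counts.

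**Figure D5:**
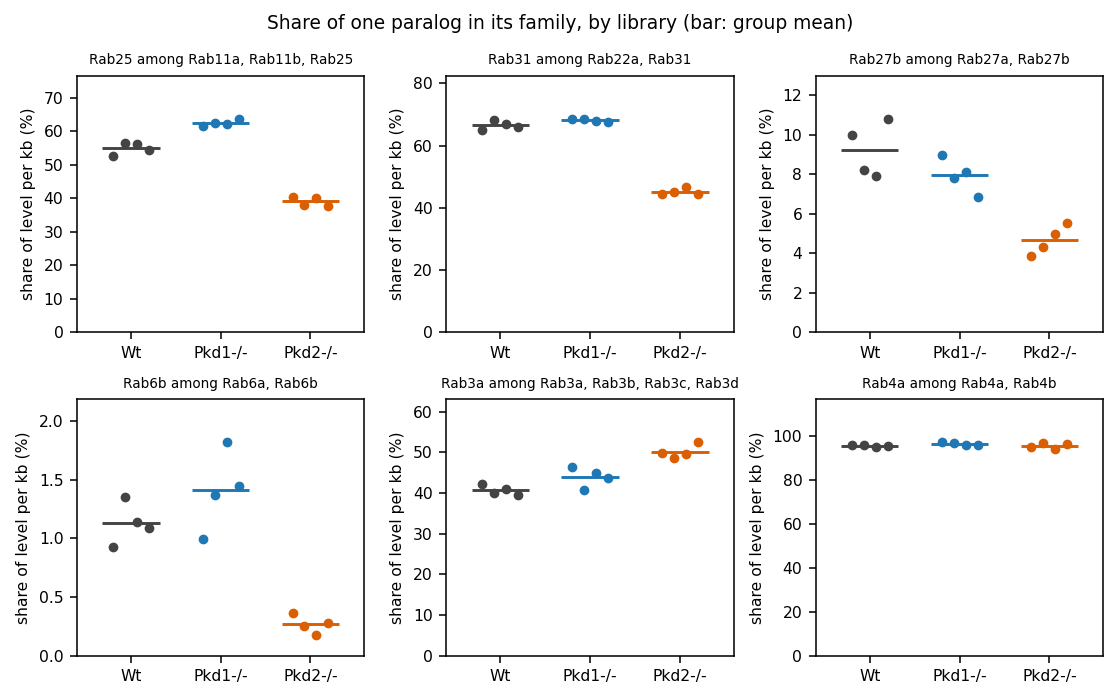
Share of 1 paralog in the per-kb level of its family, in percent (vertical axis, from 0), per library and genotype, with bars at the group means. Rab25 and Rab31 drop below the other groups in all 4 Pkd2-/- libraries, while Rab4a stays above 90% throughout. The level of its paralog Rab4b is uncertain, because Rab4b shares 65% of its exon bases with other genes.

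Several of the moderate changes were shared with neighboring genes. For each member, the median log2 fold change of the 50 nearest genes with a mean of at least 10 on its chromosome, 25 to each side, was taken. Around Exoc1 on chromosome 5 it was -0.30 in Pkd1-/-, with 7 of 50 neighbors higher, beside -0.42 for Exoc1, and around Rab28 on the same chromosome it was -0.28, beside -0.27. In Pkd2-/- the neighbors of Rab14 stood at 0.43 (42 of 50 higher), those of Rab22a at 0.38 (40 of 50) and those of Exoc6 at 0.30 (33 of 50), beside 0.32, 0.45 and 0.42 for these members. Around Rab25, Rab31, Rab6a and Rab6b the neighbors in Pkd2-/- stood between -0.14 and -0.07, and around Rab15 and Rab17 in Pkd1-/- at 0.07. The part of the surrounding region in the changes of single members was not tested.

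Regulators of the Rabs, in lists of GEFs, GAPs, effectors and chaperones, changed in both directions. Of 48 GEFs, 8 were higher and 10 lower in Pkd1-/-, and 17 were higher and 19 lower in Pkd2-/-. Of 38 GAPs, 7 and 9 changed in these directions in Pkd1-/- and 11 and 9 in Pkd2-/-. Of 42 effectors tested, 6 and 9 changed in Pkd1-/- and 12 and 8 in Pkd2-/-. Of the 8 GDIs, escort proteins and prenyl transferase subunits, which prenylate Rabs and carry them on and off membranes, 2 were higher in Pkd1-/- and 3 lower in Pkd2-/-. In the order of GEFs, GAPs, effectors and the last list, the changed shares were 37.5, 42.1, 35.7 and 25% in Pkd1-/-, beside 27.1% of all genes, and 75, 52.6, 47.6 and 37.5% in Pkd2-/-, beside 42.3%. Among genes with a mean of at least 100 the shares were 37 and 59.3%. The medians of all 4 lists lay between -0.14 and 0.06 on the log2 scale in both mutants.

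Among the regulators, the largest rise was that of Tbc1d4, a GAP of the exocytic Rabs Rab8a, Rab10 and Rab14. It stood at 587 to 752 normalized counts in Wt, at 558 to 675 in Pkd1-/- and at 4793 to 5544 in Pkd2-/-, a log2 fold change of 2.97 ± 0.08 (limma adjusted p = 6.18e-16). Sgsm1, another GAP, was at 0 in all 4 Pkd2-/- libraries against 14 to 32 in Wt, at least 7.93-fold lower when set against 3 counts per library. Tbc1d9 stood at 19 to 43 in Wt and at most at 4 in Pkd1-/- and 3 in Pkd2-/-. Rin2, a GEF of Rab5, fell in Pkd2-/- from 433 to 506 to 142 to 208 (-1.44 ± 0.10, adjusted p = 1.17e-09). Ccz1, a subunit of the GEF of Rab7, rose in Pkd1-/- (0.73 ± 0.06, adjusted p = 2.24e-08).

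Effectors of Rab27 moved in both directions. Sytl4, or granuphilin, stood at 433 to 513 normalized counts in Wt and at 101 to 136 in Pkd2-/- (-1.99 ± 0.10, limma adjusted p = 7.64e-12). Sytl2 fell in both mutants, from 225 to 349 in Wt to 117 to 146 in Pkd1-/- (-1.22 ± 0.16) and 55 to 91 in Pkd2-/- (-2.05 ± 0.16). Exph5, also a Rab27 effector, fell in Pkd1-/- (-0.84 ± 0.15) and rose in Pkd2-/- (0.89 ± 0.15). Myo5b, the motor of Rab11a and Rab25 vesicles, rose in Pkd2-/- from 571 to 667 to 1090 to 1413 (0.98 ± 0.07, adjusted p = 3.49e-09) and stood at 413 to 426 in Pkd1-/-. Rims2, an effector of Rab3, fell in both mutants (-1.98 ± 0.14 and -0.86 ± 0.14).

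Of 19 partners of the exocyst, among them small GTPases and polarity proteins, 4 were higher and 3 lower in Pkd1-/-, and 8 were higher and 5 lower in Pkd2-/-. The changed shares were 36.8 and 68.4%, beside 27.1 and 42.3% of all genes and 37 and 59.3% of those with a mean of at least 100. Tnfaip2, a protein related to Exoc3, rose in Pkd2-/- from 889 to 1000 normalized counts in Wt to 2144 to 2391 (1.30 ± 0.06, limma adjusted p = 1.09e-12). Pard6b, of the apical polarity complex, fell in Pkd1-/- (-0.44 ± 0.05, adjusted p = 1.35e-06) and rose in Pkd2-/- (0.81 ± 0.05, adjusted p = 1.34e-10). Cdc42, its GTPase partner, was lower in Pkd2-/- (-0.28 ± 0.05, adjusted p = 9.5e-05). The 50 neighbors of Pard6b had a median of 0.46 in Pkd2-/- (44 of 50 higher) and of 0.02 in Pkd1-/-. The part of the region in the change of Pard6b was not tested.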

How the data were processed

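RNA of 12 mIMCD3 libraries, 4 each of Wt, Pkd1-/- and Pkd2-/- cells, was sequenced. Reads were trimmed by the authors (Trim Galore), mapped to GRCm38 (mm10) by HISAT2, assigned to genes by htseq-count and normalized in DESeq2. The deposited score values are counts that the authors divided by DESeq2 size factors and rounded to whole numbers. They are not read counts, so the count test that the design held for read counts did not apply. All 12 sample columns were used, leaving 0 unused, and no pair of libraries was identical. What 1 read is worth in a library was estimated from the spacing of low values, giving 23200000 to 30300000 reads.

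Symbols, positions and exon lengths came from GENCODE release M21 for GRCm38, which held 47223 of the identifiers, and promoters from RefSeq (GRCm38.p6), which held 56 of the 67 members. limma 3.58.1 in R 4.3.3 (lmFit and eBayes with a variance trend) was fitted to log2(normalized count + 1) over 18552 genes, those whose mean reached 1, with all 12 libraries in 1 model and two-sided p-values, to which the Benjamini-Hochberg adjustment was applied within a comparison. Fold changes are on this log2 scale, which understates those of low genes. The procedure was tested on simulated data. For single members a two-sided exact permutation test of 4 against 4 was run, whose smallest p is 0.0286. Tables and figures were made with Python 3.11.15, pandas 2.3.3, scipy 1.17.1 and matplotlib 3.10.9. Exon overlap and shared 31-base words between genes were computed to mark genes whose reads could be split.

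The members and lists were chosen with earlier results of these data known. Named were members changed at least 2-fold, up to 8 per direction and comparison with the largest changes among those called without overlap of the groups and with a mean of at least 10, all exocyst subunits, Rabs of the apical and ciliary route, the 5 highest members and up to 3 genes per regulator list and direction. Rab3d, Rab4b, Rab5b, Rab24 and Rab27a, and the 8 untested Rabs, fall outside this rule and were added after their values were seen. A gene that the rule named is not reported here. Alternatives were another pseudocount, another filter, another scaling, a model of 2 groups, no variance trend, a replicate block and leaving out each library. Intervals cover counting error only.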

Additional observations from a re-analysis of the deposited data

Results flagged for a closer look

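In groups of 4, a library was marked where its gap to the nearest other library took up an unusually large part of the range of the group. Of 117 such tests 7 gave a mark, and chance alone marks about 1 group in 20.

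Exocyst subunits gave 5 of the marks. Exoc2 stood at 1275 normalized counts in Pkd1-/- replicate 2, above 1158 to 1167 in the others. Exoc4 stood at 2729 in Pkd1-/- replicate 1, below 2954 to 2992. Exoc6 stood at 2312 in Pkd1-/- replicate 1, below 2613 to 2646, and at 2739 in Pkd2-/- replicate 2, below 2992 to 3026. Exoc8 stood at 1019 in Pkd1-/- replicate 2, above 877 to 900. Of these, 4 fell on 2 Pkd1-/- libraries, of which replicate 1 was the lowest in both of its marks and replicate 2 the highest in both of its marks. Rab15 stood at 0 in Pkd2-/- replicate 1 and at 1 in each of the others, a difference of a single count. Rab2b stood at 104 in Wt replicate 3, above 56 to 63.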

How the results depend on the processing

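Of the 8 alternatives and the 12 fits that left out 1 library, none reversed the direction of a changed member, whether among the 17 of Pkd1-/-, the 37 of Pkd2-/- or the 33 between the mutants. The number of changed members ranged over these left-out libraries from 17 to 20 in Pkd1-/-, from 34 to 37 in Pkd2-/- and from 29 to 34 between the mutants, and the number changed at least 2-fold from 2 to 3, from 4 to 6 and from 8 to 10. With a pseudocount of 5, 3 members rather than 5 passed 2-fold in Pkd2-/-, because Rab15 (-0.97) and Rab3b (-0.80) came under it, which a larger pseudocount does to low genes. Rescaling to the same upper quartile moved the median log2 fold change of the members to -0.19 in Pkd2-/- and to -0.09 between the mutants (-0.17 to -0.14 and -0.07 to -0.02 without 1 library), while the median of all genes moved to -0.04 and -0.05, and 12 members were higher and 20 lower between the mutants (37.5% of calls higher, beside 45.5%). Of 120 values of named members, 18 changed side of the threshold in at least 1 setting. No 2-fold changed member lost its adjusted p below 0.05, the closest being Rab37 between the mutants (0.0497 without Pkd1-/- replicate 4). Replicate numbers do not pair the libraries: deviations of same-numbered libraries correlated between -0.07 and 0.20 over 12 pairs, and 9 of 24 matched best to their own number. With a replicate block the changed members numbered 19, 36 and 33, and those changed 2-fold 2, 5 and 8. Of the 2-fold changed members, Rab15, Rab37 and Rab3b rest on few counts, 4 tested members had a mean under 10, and the untested Rabs cannot be judged.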

Other observations

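Exoc6b, the paralog of Exoc6 that is outside the rule for members, averaged 1803 normalized counts in Wt, 1620 in Pkd1-/- and 1968 in Pkd2-/-. It did not pass the test against Wt in either mutant (log2 fold change -0.15 ± 0.09 and 0.13 ± 0.09), and the mutants differed (0.27 ± 0.09, limma adjusted p = 0.0123). Exoc6 made up 83.9 ± 1.44% of the per-kb sum of this pair in Wt, 87 ± 0.552% in Pkd1-/- and 86.4 ± 1.73% in Pkd2-/-.

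Chml, an escort protein that presents new Rabs for prenylation, rose in Pkd1-/- (718 to 783 normalized counts against 435 to 583 in Wt, log2 fold change 0.56 ± 0.10) and fell in Pkd2-/- (287 to 418, -0.55 ± 0.10). Rab3ip, the GEF that activates Rab8 at the base of the cilium, stood at 4592 to 4979 in Wt, at 3341 to 3719 in Pkd1-/- and at 5782 to 6286 in Pkd2-/-, and the mutants differed by 0.78 (limma adjusted p = 9.34e-11). Dennd5b, a GEF of Golgi Rabs, fell in Pkd1-/- (166 to 204 against 293 to 392, -0.84 ± 0.11) and rose in Pkd2-/- (470 to 673, 0.69 ± 0.11). Micall2, an effector of Rab13 at cell junctions, was higher in Pkd1-/- (0.58 ± 0.06), and the mutants differed by -1.02. Its 50 neighbors had a median of 0.38 in Pkd1-/- (44 of 50 higher) and of -0.59 between the mutants (7 of 50 higher).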
